A study of Mus musculus with 39 samples.

Results

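The genes described are 10 mouse transcription factor genes that have been named as candidate drivers of genome activation in the early embryo: Nfya, Nfyb, Nfyc, Sp1, Gabpa, Nr5a2, Dppa2, Dppa4, Trim24 and Klf17. They were chosen by name, as all probes that carry the name of a member on the array, with no cut on measured values. Earlier results of these data were known when the list was made. The array has 20 such probes among 55681, and the members are 10 of 22328 named genes. All 20 probes and all 10 members passed the filter on low signals, as did 22206 of the named genes, and the tests were run across these 22206 genes.

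The arrays measured polyadenylated RNA from pools of 100 oocytes or embryos, labelled B6D2F1 x ICR, 3 arrays for each of 13 conditions and 39 arrays in all. The 8 untreated conditions were GV oocytes (germinal vesicle, before the meiotic divisions resume), ovulated MII oocytes, and 1-cell, 2-cell, 4-cell and 8-cell embryos, morulae and blastocysts. The embryos came from in vitro fertilization of MII oocytes of superovulated B6D2F1 females of 8 to 9 weeks with sperm of ICR males of 15 to 20 weeks. The 5 treated conditions were embryos kept for 6 h, from 4 h post-insemination (hpi), in HTF medium with BSA and 10 µM of a histone deacetylase inhibitor (HDACi) and then cultured like the untreated controls. T247, which targets HDAC3, was measured in 1-cell (12 hpi), 2-cell (24 hpi) and 4-cell embryos (48 hpi). MGCD0103, which acts mainly on the class I enzymes HDAC1, HDAC2 and HDAC3, was measured at the 1-cell and 2-cell stages. The labels give no engineered allele for any group. Each array is a pool of whole embryos, and fewer cells of a type cannot be told apart from less RNA per cell.

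After fertilization the embryo runs on RNA that the oocyte stored, and in the mouse its own genome is switched on in a minor wave in the zygote and a major wave in the 2-cell embryo. Transcription factors that bind the promoters or enhancers of the first genes are needed for this switch. NF-Y, made of the subunits NF-YA, NF-YB and NF-YC, binds the CCAAT box. Sp1 binds GC boxes, and Gabpa is an ETS family factor that binds sites with a GGAA core. Nr5a2 is an orphan nuclear receptor, and the SAP domain proteins Dppa2 and Dppa4 form a pair on chromatin. Trim24 is a chromatin reader that acts as a coregulator of transcription, and Klf17 is a Krüppel-like zinc finger factor that is abundant in oocytes. Histone deacetylases remove acetyl groups from histones, a change that goes with lower transcription.

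Promoter sequence is shown for Gabpa, Nfyb, Sp1 and Nr5a2, because several members bind sites that also occur in front of the members themselves. The RefSeq-derived promoter table (GRCm38.p6) held 8 of the 10 members, all but Dppa2 and Dppa4. Nfya and Nfyc had 3 entries each and Nr5a2 and Trim24 had 2 each, of which only the entry farthest 5′ was searched. The first 250 bases before the start site are printed 5′ to 3′ on the strand of the gene, with matches to the searched motifs in capitals. The motifs, searched on both strands, were CCAAT (NF-Y), GGGCGG (Sp1), CCGGAAG (Gabpa) and AAGGTCA (Nr5a2).
Gabpa promoter, chr16:84834874-84835123, plus strand: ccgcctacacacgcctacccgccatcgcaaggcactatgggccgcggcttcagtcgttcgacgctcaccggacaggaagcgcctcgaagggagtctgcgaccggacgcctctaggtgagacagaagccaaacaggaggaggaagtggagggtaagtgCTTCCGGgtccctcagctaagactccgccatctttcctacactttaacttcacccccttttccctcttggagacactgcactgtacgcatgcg
Nfyb promoter, chr10:82764142-82764391, minus strand: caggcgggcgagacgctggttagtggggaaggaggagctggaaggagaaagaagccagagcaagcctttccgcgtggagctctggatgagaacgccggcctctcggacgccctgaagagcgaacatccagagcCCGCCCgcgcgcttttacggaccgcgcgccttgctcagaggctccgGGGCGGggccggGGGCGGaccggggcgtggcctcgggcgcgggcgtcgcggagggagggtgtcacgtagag
Sp1 promoter, chr15:102406066-102406315, plus strand: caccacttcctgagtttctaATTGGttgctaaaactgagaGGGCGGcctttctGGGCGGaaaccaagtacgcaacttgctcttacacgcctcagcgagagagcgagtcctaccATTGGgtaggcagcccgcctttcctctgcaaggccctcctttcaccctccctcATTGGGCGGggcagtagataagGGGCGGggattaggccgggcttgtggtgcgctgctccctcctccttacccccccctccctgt
Nr5a2 promoter, chr1:136960449-136960698, minus strand: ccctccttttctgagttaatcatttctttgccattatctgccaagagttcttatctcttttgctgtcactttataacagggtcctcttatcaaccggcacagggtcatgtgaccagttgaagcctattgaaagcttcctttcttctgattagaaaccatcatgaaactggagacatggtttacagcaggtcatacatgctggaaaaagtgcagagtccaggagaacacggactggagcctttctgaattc
In Gabpa the capitals mark its own motif on the opposite strand, 93 bases before the start. In Nfyb they mark 3 GC boxes, and in Sp1 3 CCAAT boxes on the opposite strand and 4 GC boxes, of which 1 overlaps a CCAAT box. In the Nr5a2 entry searched there was no match. Of the 8 members with an entry, 3 held CCAAT, 6 held GGGCGG, 1 held CCGGAAG and 0 held AAGGTCA in the entry searched. Over 32851 promoter entries of the same length, with every entry of a gene counted, 33.8% held CCAAT, 32.7% GGGCGG, 6.91% CCGGAAG and 4.08% AAGGTCA. These are matches of letters and not binding sites.

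Between 44.4 and 58.3% of the spots of an array were well above background and 0 were saturated. In 12 conditions replicate arrays correlated with a mean Pearson r of at least 0.985 over all genes tested (the brightest probe of each). The first control array of the 2-cell stage, however, stood apart (r = 0.951 and 0.958 with the other 2 control arrays, which had r = 0.993 between them). Inhibitor differences of the members' brightest probes at the 2-cell stage are therefore also given without that array where it changed a call or a sign or moved the value by over 1.5 times. The untreated arrays occupied slides 1 to 3, those with T247 slides 4 and 5 and those with MGCD0103 slide 6, so slide and treatment cannot be told apart. Of 9 oocyte markers, 9 were well above background on all arrays from GV to the 2-cell stage, treated embryos included, and of 7 trophectoderm markers 7 were so in morula and blastocyst. Of the 5 inner cell mass markers, between 3 and 5 were well above background on all arrays of a condition. Of 10 cumulus and granulosa cell markers between 1 and 7, and of 7 sperm markers between 1 and 4, were well above background on all arrays of a condition. Of 4 measured blood markers Hba-a1 was the one with all 3 arrays of a condition well above background.

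Levels are normalized signals on the log2 scale, and a level of a probe is compared with other levels of the same probe and never with another probe. A gene is represented by its brightest probe, and the other probes are given by their array names. A call is a log2 fold change (LFC) of at least 1 in size with a Benjamini-Hochberg adjusted p below 0.05 in limma, fitted across all genes or, for single probes, across all 55198 probes kept. A member is said to have risen or fallen only where it was called. Where a group had 0 of 3 arrays well above background the fold is a lower bound.

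Over the untreated stages the members fell into broad classes by where their level was highest. Nfya, Nfyc and Trim24 were highest in GV oocytes, and Klf17 was highest in GV oocytes and 1-cell embryos, with a dip at MII, and lowest in the blastocyst. Gabpa and Dppa4 were lowest in MII oocytes or 1-cell embryos and highest at the 4-cell and 8-cell stages, and Nr5a2 and Dppa2 were also highest at the 8-cell stage. The distance between the highest and the lowest untreated stage was 8.30 (log2) for Dppa4, 8.28 for Gabpa and 7.18 for Klf17, against a median of 3.51 over all genes. On the brightest probes Nfyb varied least, with 1.28, which was at the 16.6th percentile of all genes. Its other probes, A_52_P239707 and A_55_P1975456, went from background in MII oocytes (1.87 and 2.25) to 10.21 and 10.72 in the morula.

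**Figure D1:**
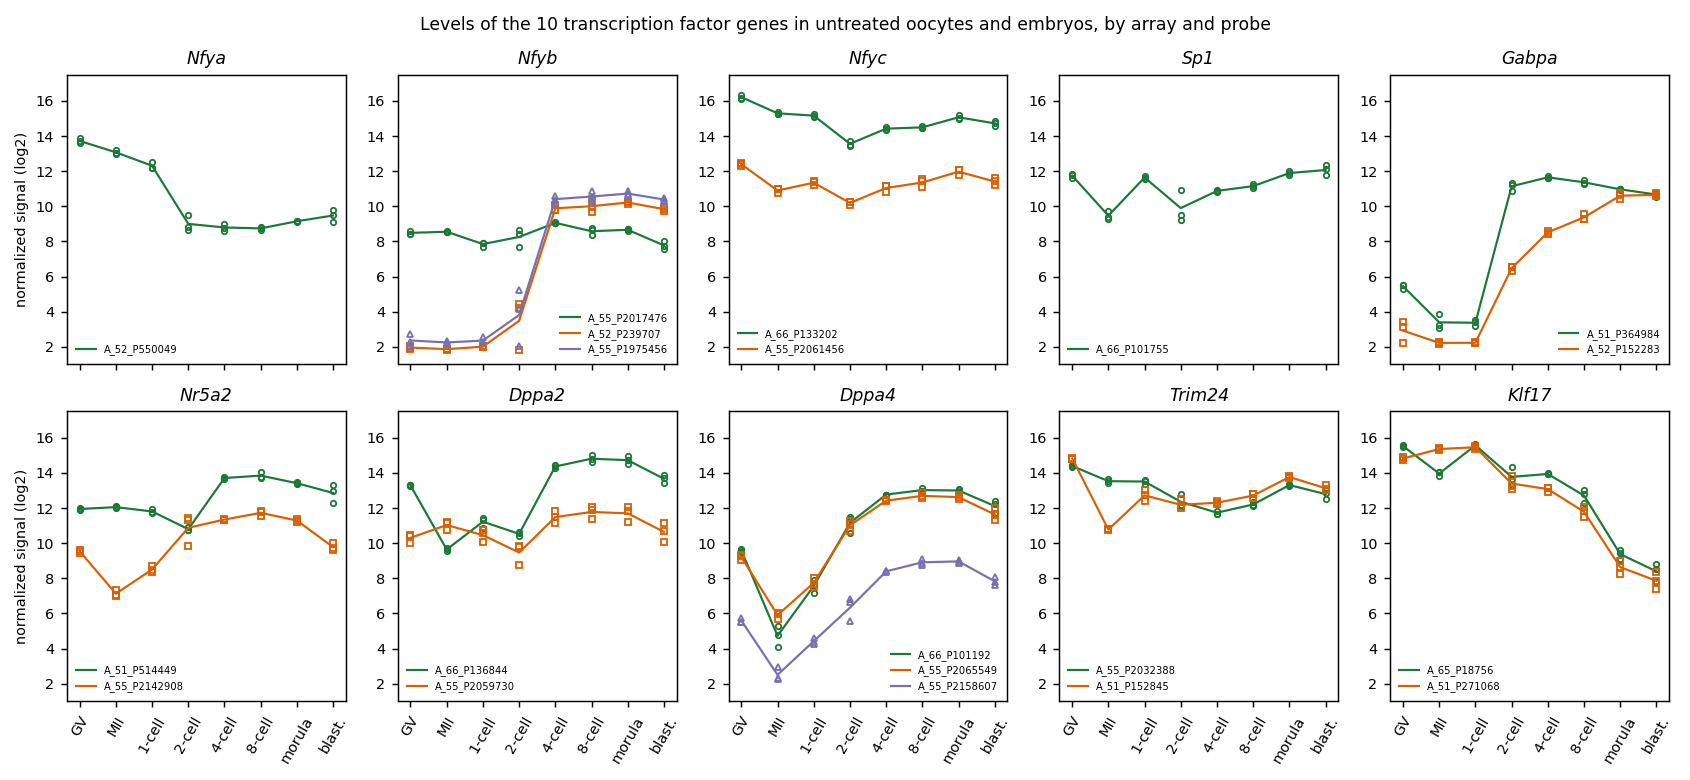
Normalized signal (log2, y axis) of all 20 probes of the 10 genes in 8 untreated stages (x axis). Each point is 1 array, lines join the means of 3 arrays, and green marks the brightest probe of a gene; Gabpa climbs from 3.17 to 3.52 in 1-cell embryos to 10.86 to 11.34 in 2-cell embryos, and the probes of Nfyb and Nr5a2 take different courses.

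The 7 consecutive steps between untreated stages gave 24 calls in 70 tests of members, 10 higher and 14 lower, against 30.9% of tests over all genes. From the 1-cell to the 2-cell stage 8 of 10 members were called, 2 higher and 6 lower, where 43.9% of all genes were called (16.9% higher and 27.1% lower). On the brightest probes Gabpa and Dppa4 rose, and Nfya, Nfyc, Nr5a2, Trim24, Sp1 and Klf17 fell. Other probes differed for 3 members. Nr5a2 probe A_55_P2142908 was called higher (2.38) and Trim24 probe A_51_P152845 was not called (-0.54). Nfyb probes A_52_P239707 and A_55_P1975456 were called higher from dim signals (1.48 and 1.46). The median LFC of this step was -1.08 over the members and -0.24 over all genes. From the 2-cell to the 4-cell stage Nr5a2, Dppa2 and Dppa4 rose and 0 fell, where 49.9% of all genes were called (20.1% rose and 29.8% fell). From MII to the 1-cell stage Dppa2, Dppa4, Sp1 and Klf17 rose and 0 fell (13.2% and 4.25% of all genes). Later calls were few. Klf17 fell from the 4-cell to the 8-cell stage (6.45% of all genes rose and 5.72% fell). It fell again into the morula, where Trim24 rose (30.4% of all genes were called, 24.8% higher and 5.62% lower), and Dppa2 fell into the blastocyst (17% rose and 6.72% fell).

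The step from GV to MII depended on the scaling of the arrays. With smooth quantile normalization 87 genes rose and 8560 fell (0.392% and 38.5%), with 75th percentile scaling 8425 rose and 4083 fell, and with quantile normalization 4004 rose and 4354 fell. The median LFC over all genes was -0.60, 0.70 and 0.07. Dppa2, Dppa4, Sp1, Klf17 and Gabpa were the 5 members that fell under smooth quantile normalization, and 0 rose. Dppa2 (LFC from -3.65 to -2.14) and Dppa4 (from -4.87 to -3.20) were called lower under every scaling and under normexp background correction, and relative to the median of all genes they ranged from -3.30 to -2.21 and from -4.33 to -2.98. The other Dppa2 probe, A_55_P2059730, went the other way at this step (LFC 0.73, adjusted p = 0.0407, not called, and called at 2.03 with 75th percentile scaling and 2.06 with quantile normalization). Sp1 ranged from -1.91 to -0.84 relative to that median. Sp1 and Klf17 were not called with 75th percentile scaling or quantile normalization, and Gabpa was not called with 75th percentile scaling or normexp. With 75th percentile scaling and with quantile normalization Nfyb and Nr5a2 were called higher, and Nfya, Nfyc and Trim24 changed sign without a call under at least 1 of these settings. In other steps the split of all calls also moved. Under 75th percentile scaling 1793 genes rose and 1949 fell at the 1-cell step (2937 and 943 under smooth quantile normalization), 4295 and 4831 at the 2-cell step (3747 and 6010), 5922 and 5312 at the 4-cell step (4464 and 6610), 1167 and 1433 at the 8-cell step (1433 and 1271), 2766 and 2885 at the morula step (5499 and 1249), and 2377 and 3010 at the blastocyst step (3766 and 1493). Klf17 fell at the 2-cell, 8-cell and morula steps, Gabpa rose at the 2-cell step and Nr5a2, Dppa2 and Dppa4 rose at the 4-cell step under each of these 4 settings. The falls of Nr5a2 and Trim24 at the 2-cell step and the rise of Trim24 into the morula were not called under 75th percentile scaling or quantile normalization.

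Of 50 tests of a member with an inhibitor against the control of the same stage, 9 were called and all 9 were lower. Over all genes 14% were called in either direction, and lower calls made up 0.482% to 12.9% by comparison. Of the 9, Gabpa at the 1-cell stage with MGCD0103 had no array well above background in either group. Sp1 at the 4-cell stage with T247 was not called under quantile normalization or normexp. At the 2-cell stage Nfyb, Dppa2, Dppa4 and Gabpa, 4 of 10 members, were lower with T247, where 22% of all genes were called (9.13% higher and 12.9% lower). Nfyb, Dppa4 and Gabpa, 3 of 10, were lower with MGCD0103, where 24.5% of all genes were called (12.1% and 12.5%). No member was called higher on its brightest probe with either compound at any stage. These 7 calls at the 2-cell stage remained calls under smooth quantile, quantile and 75th percentile scaling and under normexp, although over all genes the split with T247 went from 2027 higher and 2855 lower to 2622 and 1910 with 75th percentile scaling, and with MGCD0103 from 2679 and 2771 to 3013 and 2525. The median LFC with T247 was -0.74 over the members and -0.22 over all genes, and with MGCD0103 -0.08 and -0.004. Both comparisons used the same 3 control arrays.

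In 2-cell embryos other markers differed with treatment as well. The summed level of the 9 oocyte markers (log2) lay between 17.8 and 17.9 in controls, between 17.3 and 17.4 with T247 and at 17.8 with MGCD0103. That of the 7 trophectoderm markers was 11.8 to 12.0 in controls, 13.2 to 13.3 with T247 and 13.3 to 13.5 with MGCD0103, and that of the 5 inner cell mass markers 11.04 to 11.38, 10.3 to 10.4 and 10.4 to 10.6. The 10 cumulus and granulosa markers summed to 13.7 to 13.9, 12.98 to 13.06 and 13.4 to 13.5. The 7 sperm markers summed to 9.95 to 10.5 in controls, 9.34 to 9.70 with T247 and 10.4 to 10.5 with MGCD0103. The 4 blood markers summed to 8.60 to 9.55, 10.64 to 10.72 and 10.1 to 10.4, with Hba-a1 alone well above background on all 3 arrays of each group. The part of these markers in the results was not tested.

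**Figure D2:**
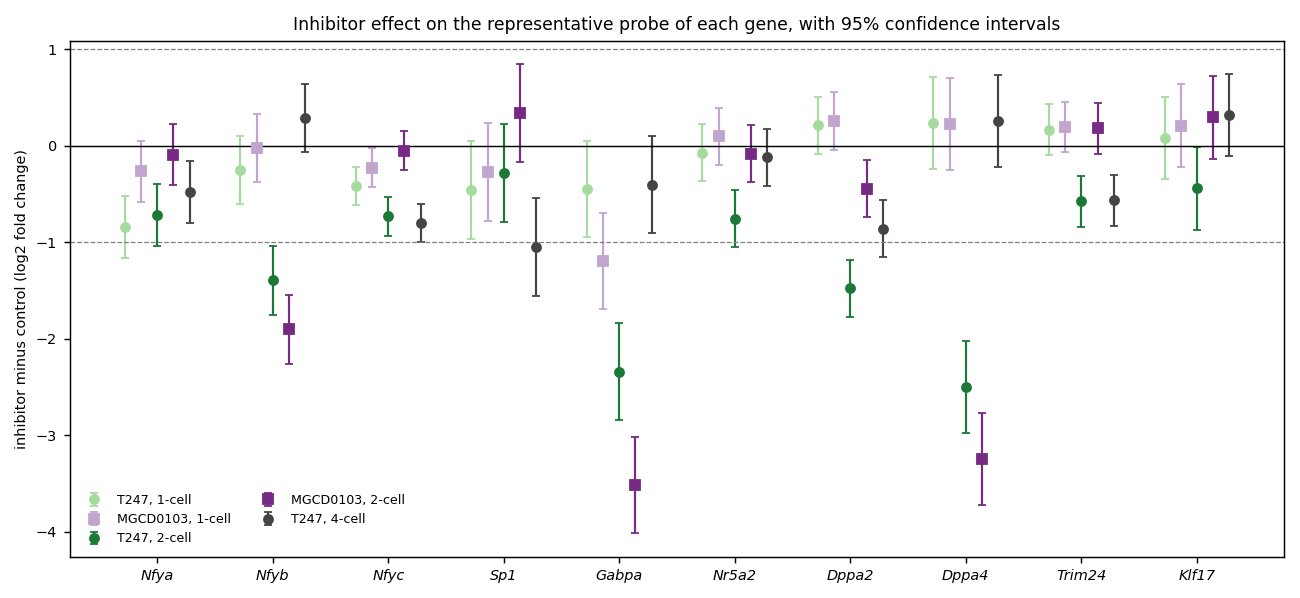
Log2 fold change of inhibitor against the control of the same stage (y axis) for the brightest probe of each of the 10 genes (x axis). Points are limma estimates from 3 arrays against 3, bars are 95% confidence intervals and dashed lines mark a fold change of 1 in size on this scale; at the 2-cell stage Dppa4 and Gabpa reach -3.25 and -3.52 with MGCD0103, and the 1-cell points of Gabpa compare signals that were not well above background.

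Gabpa went from background in 1-cell embryos to a high signal in 2-cell embryos. Its brightest probe (A_51_P364984, mm9 chr16:84860691-84860750, plus strand) read 5.53, 5.29 and 5.54 in GV oocytes and was not well above background on any array of MII oocytes (3.08, 3.87, 3.22) or 1-cell controls (3.52, 3.42, 3.17). It read 10.86, 11.34 and 11.22 in 2-cell controls, 11.60, 11.60 and 11.75 at the 4-cell stage, and then drifted down to between 10.55 and 10.76 in the blastocyst. The 2-cell arrays lay far above the 1-cell arrays with no overlap, at least 115-fold higher (adjusted p = 2.97e-21, limma). With T247 the 2-cell arrays read 9.07, 8.70 and 8.63, and with MGCD0103 7.54, 7.61 and 7.72, so that the 3 groups were fully apart. The LFC against the control was -2.34 ± 0.24 (SE, n = 3 against 3 arrays, adjusted p = 5.8e-09) with T247, 5.06-fold lower, and -3.52 ± 0.24 (adjusted p = 1.54e-12) with MGCD0103, 11.5-fold lower. Without the first control array these were -2.48 and -3.66. T247 embryos at the 4-cell stage (11.31, 11.42, 11.01) lay just below the controls, with an LFC of -0.40 that was not called (adjusted p = 0.219).

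A further Gabpa probe, A_52_P152283, lies 3131 bases downstream of the brightest and climbed more slowly. It read 6.57, 6.55 and 6.30 in 2-cell controls, at least 4.53-fold above the 1-cell stage (adjusted p = 4.35e-15), 8.61, 8.49 and 8.44 at the 4-cell stage and 10.43, 10.65 and 10.73 in the morula, where the brightest probe had already passed its peak. With T247 at the 2-cell stage it read 5.21, 5.19 and 4.96 (LFC -1.36, adjusted p = 5.16e-05). With MGCD0103 it read 2.82, 3.98 and 4.13, of which the third alone was well above background (LFC -2.83, adjusted p = 1.63e-10). Both probes thus had the same order of the 3 groups, control above T247 above MGCD0103. At the 1-cell stage with MGCD0103 the brightest Gabpa probe was called lower (adjusted p = 0.00149), but no array of either group was well above background, so no fold is given, and without the second MGCD0103 array the call was lost.

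The NF-Y subunits followed 3 different courses. Nfya, with 1 probe (A_52_P550049, mm9 chr17:48526686-48526745, minus strand), read 13.88, 13.70 and 13.58 in GV oocytes, 13.19, 13.02 and 13 in MII oocytes and 12.20, 12.52 and 12.20 in 1-cell controls. It then read 9.5, 8.65 and 8.84 in 2-cell controls and stayed between 8.60 and 9.79 up to the blastocyst. The fall into the 2-cell stage was -3.31 ± 0.16 (adjusted p = 2.77e-17). T247 arrays lay below the controls without overlap in 1-cell embryos (11.43, 11.53, 11.44, LFC -0.84, adjusted p = 0.000299) and in 2-cell embryos (8.32, 8.24, 8.28, LFC -0.72, adjusted p = 0.000374), and neither difference reached the size of a call. Without the first control array the 2-cell value was -0.47. With MGCD0103 the 2-cell arrays (8.86, 8.85, 9.0) lay within the control range and the LFC of -0.09 had a 95% interval from -0.41 to 0.23, and was 0.16 without the first control array. The step from the 1-cell to the 2-cell stage was -3.31 in controls, -3.19 with T247 and -3.14 with MGCD0103.

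Nfyb had 3 probes that did not measure the same course. The brightest (A_55_P2017476, mm9 chr10:82224579-82224638, minus strand) read 7.91, 7.93 and 7.71 in 1-cell controls, 7.67, 8.66 and 8.43 in 2-cell controls and 9.04, 9.04 and 9.08 at the 4-cell stage. The first 2-cell control array lay with the 1-cell arrays and the other 2 above them. The 2-cell arrays with T247 read 7.03, 6.88 and 6.66, and with MGCD0103 6.31, 6.21 and 6.54, all below every control array and below the 1-cell stage. The LFC was -1.40 ± 0.17 (adjusted p = 1.24e-07) with T247, 2.63-fold lower, and -1.90 ± 0.17 (adjusted p = 3.56e-10) with MGCD0103, 3.74-fold lower, and without the first control array -1.69 and -2.19. Later, 4-cell T247 embryos read 9.59, 9.51 and 8.94 and overlapped the controls (LFC 0.29, adjusted p = 0.208).

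The other Nfyb probes, A_52_P239707 and A_55_P1975456, lie 12564 and 12547 bases downstream and overlap each other. In untreated embryos they were well above background on all 3 arrays only from the 4-cell stage on. The brightest probe was so in every condition. A_52_P239707 read 1.84, 4.42 and 4.18 in 2-cell controls, with the second array alone well above background, and 9.76, 9.80 and 10.09 at the 4-cell stage, a rise of 6.40 ± 0.55 (adjusted p = 1.69e-11). A_55_P1975456 read 2.05, 5.22 and 4.15 and then 10.25, 10.36 and 10.60, a rise of 6.60 ± 0.48 (adjusted p = 5.13e-13). Neither was well above background on any treated array at the 2-cell stage, and in 4-cell embryos with T247 they read 9.59 to 9.81 and 10.05 to 10.23. Their 2-cell differences were larger in size without the first control array, and a call of A_55_P1975456 turned on it. A_52_P239707 was called lower with T247 (adjusted p = 0.0349) and MGCD0103 (adjusted p = 0.013), but its signal in controls was too low for a bound of the fold. A_55_P1975456 was at least 1.16-fold lower with T247 (adjusted p = 0.0151), and its MGCD0103 difference was called without that array (adjusted p = 8.7e-05) and not with it (adjusted p = 0.0558).

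Nfyc (A_66_P133202, mm9 chr4:120430048-120430107, minus strand) was high throughout. It read 16.34, 16.19 and 16.10 in GV oocytes, 15.16, 15.07 and 15.25 in 1-cell controls and 13.74, 13.44 and 13.48 in 2-cell controls, a fall of -1.60 ± 0.10 (adjusted p = 1.09e-14), and was back between 14.97 and 15.22 in the morula. With T247 the arrays lay below the controls in 2-cell embryos (12.86, 12.74, 12.87, LFC -0.73, adjusted p = 4.16e-07) and in 4-cell embryos (13.65, 13.53, 13.68 against 14.38, 14.36, 14.52, LFC -0.80), both short of a call. With MGCD0103 the 2-cell arrays (13.59, 13.48, 13.46) overlapped the controls (LFC -0.05, or 0.05 without the first control array). The other probe, A_55_P2061456, had the same LFC of -0.73 with T247 at the 2-cell stage.

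Sp1 had 1 probe (A_66_P101755, mm9 chr15:102266504-102266563, plus strand). It read 11.82, 11.81 and 11.61 in GV oocytes, 9.73, 9.37 and 9.29 in MII oocytes and 11.62, 11.75 and 11.54 in 1-cell controls, a dip at MII with no overlap on either side. The LFC was -2.28 ± 0.25 into MII (adjusted p = 2.81e-09) and 2.17 ± 0.25 into the 1-cell stage (adjusted p = 2.72e-08). In 2-cell controls it read 10.95, 9.23 and 9.5 and the first array lay apart from the other 2. The fall into the 2-cell stage was -1.74 ± 0.25 (adjusted p = 4.63e-07), or -2.27 without that array, and the change into the 4-cell stage (10.94, 10.83, 10.85) was 0.98, or 1.51 and called without it. In 2-cell embryos the arrays with T247 read 9.47, 9.66 and 9.72 and with MGCD0103 10.40, 10.21 and 10.09, inside the control range. The upper end of that range was the first control array, and the MGCD0103 arrays lay above the other 2. The LFC of -0.28 with T247 became 0.25 without the first control array and 0.14 with quantile normalization. With MGCD0103 the LFC was 0.34 (95% interval from -0.17 to 0.85), and 0.87 without the first control array (adjusted p = 6.09e-05 in limma, not called). Sp1 was the 1 member called lower with T247 at the 4-cell stage, where 15.3% of all genes were called and 5.26% were lower. The T247 arrays read 9.88, 9.42 and 10.17, below all controls (LFC -1.05 ± 0.25, adjusted p = 0.00136). That call was lost without the second T247 array (-0.85) and under quantile normalization and normexp, and with 75th percentile scaling Dppa2 was called lower as well; over all genes 2234 were higher and 1167 lower, and 1855 and 1747 with 75th percentile scaling.

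Nr5a2 gave opposite answers on its 2 probes. The brightest (A_51_P514449, mm9 chr1:138740903-138740962, minus strand) read 11.74, 11.93 and 11.74 in 1-cell controls, 10.90, 10.75 and 10.74 in 2-cell controls and 13.68, 13.70 and 13.74 at the 4-cell stage. It fell by 1.01 ± 0.14 (log2) into the 2-cell stage (adjusted p = 5.13e-07), close to the limit of a call, and rose by 2.91 ± 0.14 into the 4-cell stage (adjusted p = 4.64e-17). A_55_P2142908, 809 bases upstream, read 8.68, 8.34 and 8.48 in 1-cell controls and 9.86, 11.34 and 11.42 in 2-cell controls, and then 11.37, 11.34 and 11.31 at the 4-cell stage. It rose by 2.38 ± 0.22 into the 2-cell stage (adjusted p = 2.44e-10), or 2.88 without the first control array, and by 0.47 (adjusted p = 0.0898) into the 4-cell stage. The probes also parted at MII, where the upstream probe read 7.04, 7.33 and 7.0 against 9.57, 9.46 and 9.59 in GV oocytes (LFC -2.42, adjusted p = 1.41e-10) and the brightest hardly moved (LFC 0.11, adjusted p = 0.616).

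The inhibitor differences at the 2-cell stage were of unequal size on the Nr5a2 probes. On the upstream probe the 2-cell arrays read 8.78, 8.69 and 8.62 with T247 and 7.95, 7.95 and 8.01 with MGCD0103, near or below the 1-cell level. The LFC was -2.18 ± 0.22 (adjusted p = 6.02e-09) and -2.91 ± 0.22 (adjusted p = 1.79e-11), or -2.69 and -3.41 without the first control array. On the brightest probe the T247 arrays read 10.00, 10.18 and 9.95, below all controls but short of a call (LFC -0.76, adjusted p = 8.43e-05). The MGCD0103 arrays read 10.78, 10.73 and 10.64 and overlapped the controls (LFC -0.08, 95% interval from -0.38 to 0.22, and -0.03 without the first control array). Neither probe was called with T247 at the 4-cell stage (LFC -0.12 on the brightest and 0.14 on the upstream probe).

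**Figure D3:**
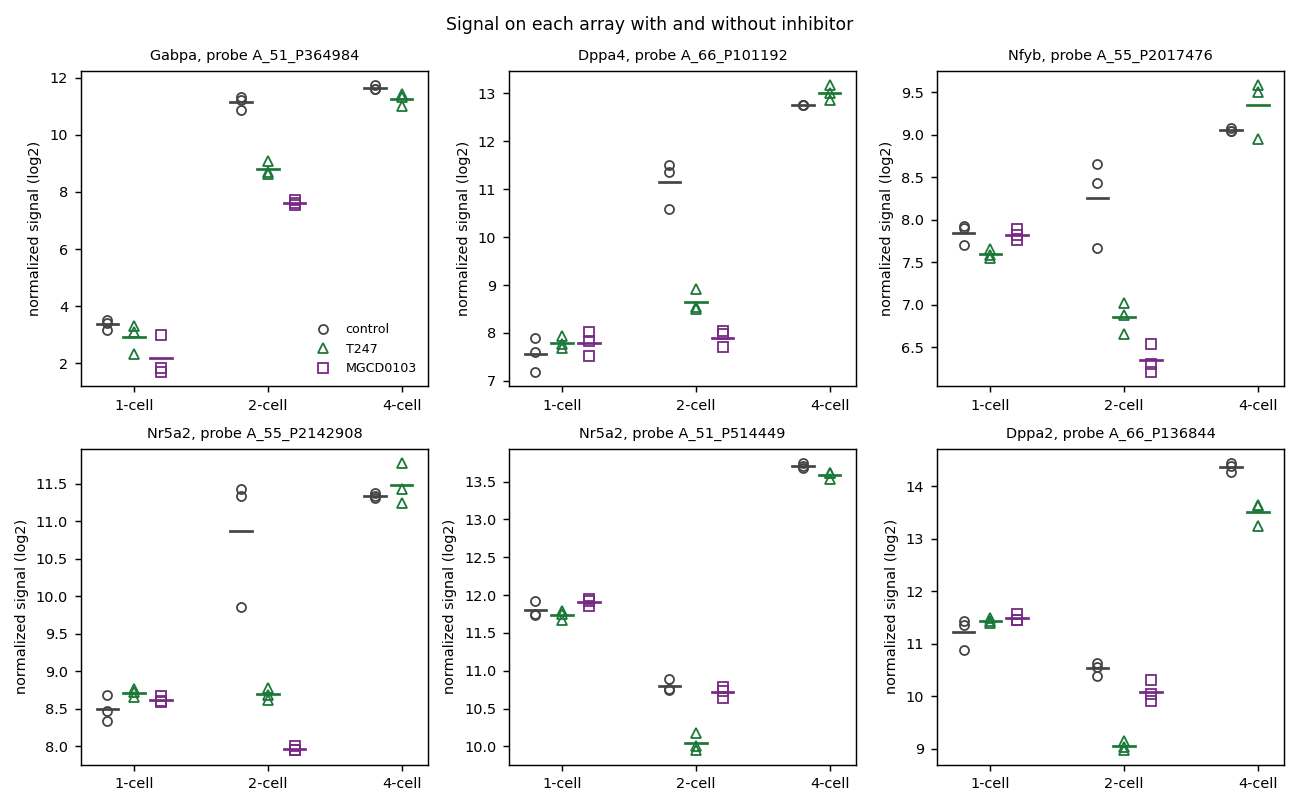
Normalized signal (log2, y axis) of 6 probes on each array of control, T247 and MGCD0103 embryos by stage (x axis; no MGCD0103 arrays at the 4-cell stage). Points are arrays and short lines the means of 3; for Gabpa, Dppa4, Nfyb and the upstream Nr5a2 probe the 2-cell means lie in the order control, T247, MGCD0103 from high to low, whereas for Dppa2 T247 is lowest.

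Dppa4 (A_66_P101192, mm9 chr16:48293216-48293867, plus strand, an interval longer than the 60 bases of the probe) was lowest in MII oocytes, at 4.09, 4.78 and 5.30 with the first array not well above background, after 9.67, 9.63 and 9.47 in GV oocytes. It read 7.89, 7.18 and 7.61 in 1-cell controls, 10.58, 11.51 and 11.37 in 2-cell controls and 12.77, 12.76 and 12.77 at the 4-cell stage. It rose by 2.84 ± 0.23, 3.59 ± 0.23 and 1.61 ± 0.23 at these steps (adjusted p = 3.87e-11, 4.44e-14 and 4.66e-07). With T247 the 2-cell arrays read 8.91, 8.54 and 8.51, and with MGCD0103 7.70, 7.97 and 8.05, at the level of the treated 1-cell embryos (7.51 to 8.03 with MGCD0103). The LFC was -2.50 ± 0.23 (adjusted p = 6.77e-10), 5.66-fold lower, and -3.25 ± 0.23 (adjusted p = 3.01e-12), 9.51-fold lower, or -2.79 and -3.54 without the first control array. By the 4-cell stage T247 embryos read 13.01, 13.18 and 12.87, above the controls (LFC 0.26, adjusted p = 0.438). The other 2 Dppa4 probes were also called lower at the 2-cell stage, A_55_P2065549 by -2.35 and -3.11 and A_55_P2158607 by -1.52 and -1.92 with T247 and MGCD0103. At the 1-cell stage A_55_P2158607 was called higher with T247 (LFC 1.22, adjusted p = 0.000571), and the brightest probe was not (0.24).

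Dppa2 (A_66_P136844, mm9 chr16:48319381-48319440, plus strand) read 13.29, 13.24 and 13.33 in GV oocytes, 9.67, 9.53 and 9.71 in MII oocytes and 11.35, 10.89 and 11.43 in 1-cell controls. It read 10.38, 10.56 and 10.64 in 2-cell controls and 14.27, 14.43 and 14.39 at the 4-cell stage, a rise of 3.84 ± 0.14 (adjusted p = 7.11e-20). On the brightest probes the largest rise of Dppa2 thus came a stage later than that of Dppa4. Dppa4 probe A_55_P2158607 rose by 1.91 into the 2-cell and 2.07 into the 4-cell stage. With T247 the 2-cell arrays of the brightest Dppa2 probe read 8.96, 9.04 and 9.15, below all controls (LFC -1.48 ± 0.14, adjusted p = 1.63e-09, 2.79-fold lower). With MGCD0103 they read 10.31, 10.04 and 9.90, also below all controls but closer (LFC -0.44, adjusted p = 0.0135, not called). At the 4-cell stage T247 embryos (13.62, 13.24, 13.65) were still below the controls on this probe (LFC -0.86, adjusted p = 2.5e-05), short of a call. The other probe, A_55_P2059730, read 10.08, 10.73 and 10.56 in 1-cell controls, 11.49, 11.59 and 11.58 with T247 and 11.56, 11.52 and 11.57 with MGCD0103. It was called higher with both at that stage (LFC 1.1 and 1.09, adjusted p = 0.00753 and 0.0115), where 5.13% and 3.04% of all probes were called higher, while the brightest was not (0.21 and 0.26). Its 2-cell LFC was -0.77 with T247, or -1.13 and called without the first control array, and -0.32 with MGCD0103, or -0.68 without that array. At the 4-cell stage with T247 its LFC was 0.56, not called and opposite in sign to that of the brightest probe.

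Trim24 (A_55_P2032388, mm9 chr6:37915817-37915876, plus strand) read 14.46, 14.39 and 14.32 in GV oocytes, 13.60, 13.39 and 13.53 in 1-cell controls, 12.77, 12.11 and 12.18 in 2-cell controls, 11.66, 11.68 and 11.86 at the 4-cell stage and 13.26, 13.31 and 13.34 in the morula. The fall into the 2-cell stage was -1.15 ± 0.13 (adjusted p = 5.13e-09) and the rise into the morula 1.1 ± 0.13 (adjusted p = 2.06e-08). The T247 arrays at the 2-cell stage read 11.80, 11.78 and 11.77 (LFC -0.57, adjusted p = 0.000557, not called, and -0.36 without the first control array), below all controls. With MGCD0103 they read 12.57, 12.55 and 12.49, within the control range (LFC 0.18, or 0.39 without that array). A_51_P152845, 285 bases downstream, moved more around MII. It read 14.86, 14.81 and 14.81 in GV oocytes, 10.78, 10.80 and 10.73 in MII oocytes and 13.01, 12.42 and 12.73 in 1-cell controls, a fall of -4.06 ± 0.12 (adjusted p = 2.42e-22) and a rise of 1.95 (adjusted p = 1.71e-13), where the brightest probe changed by -0.86 into MII.

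Klf17 (A_65_P18756, mm9 chr4:117429264-117429300, minus strand) read 15.65, 15.48 and 15.58 in 1-cell controls, 14.36, 13.34 and 13.62 in 2-cell controls, 13.91, 13.98 and 13.93 in 4-cell embryos, 13.04, 12.27 and 12.81 in 8-cell embryos, 9.59, 9.42 and 9.10 in the morula and 7.78, 8.84 and 8.55 in the blastocyst. It fell by 1.80 ± 0.21 into the 2-cell stage (adjusted p = 1.12e-08), by 1.23 ± 0.21 into the 8-cell stage (adjusted p = 3.6e-05) and by 3.33 ± 0.21 into the morula (adjusted p = 6.02e-14). Treated 2-cell arrays read 13.37, 13.33 and 13.30 with T247 and 14.10, 14.07 and 14.03 with MGCD0103, and neither was called (LFC -0.44 and 0.30, or -0.15 and 0.59 without the first control array). The other probe, A_51_P271068, went the other way at MII (15.31, 15.41 and 15.35 against 14.88, 14.84 and 14.74 in GV oocytes, LFC 0.54), where the brightest fell by 1.56 ± 0.21 (adjusted p = 1.46e-07).

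Single probes of a gene differed by more than 1 (log2) in LFC in 6 of the 8 members with several probes from GV to MII, where 41.3% of 6989 genes with several probes did so, and in 4 of 8 into the 2-cell stage (41.1%). With T247 at the 2-cell stage they did so in 1 of 8 (25.3%) and with MGCD0103 in 2 of 8 (28.8%). Counted by probe, 10 of the 20 member probes, in 5 genes, were called lower with T247 at the 2-cell stage, where 10.9% of all probes were called lower, and 8 of 20, in 4 genes, with MGCD0103 (10.5%). Probes of a gene share their target and are not independent of each other. The place of the probes in exons or untranslated regions was not analysed here.

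**Figure D4:**
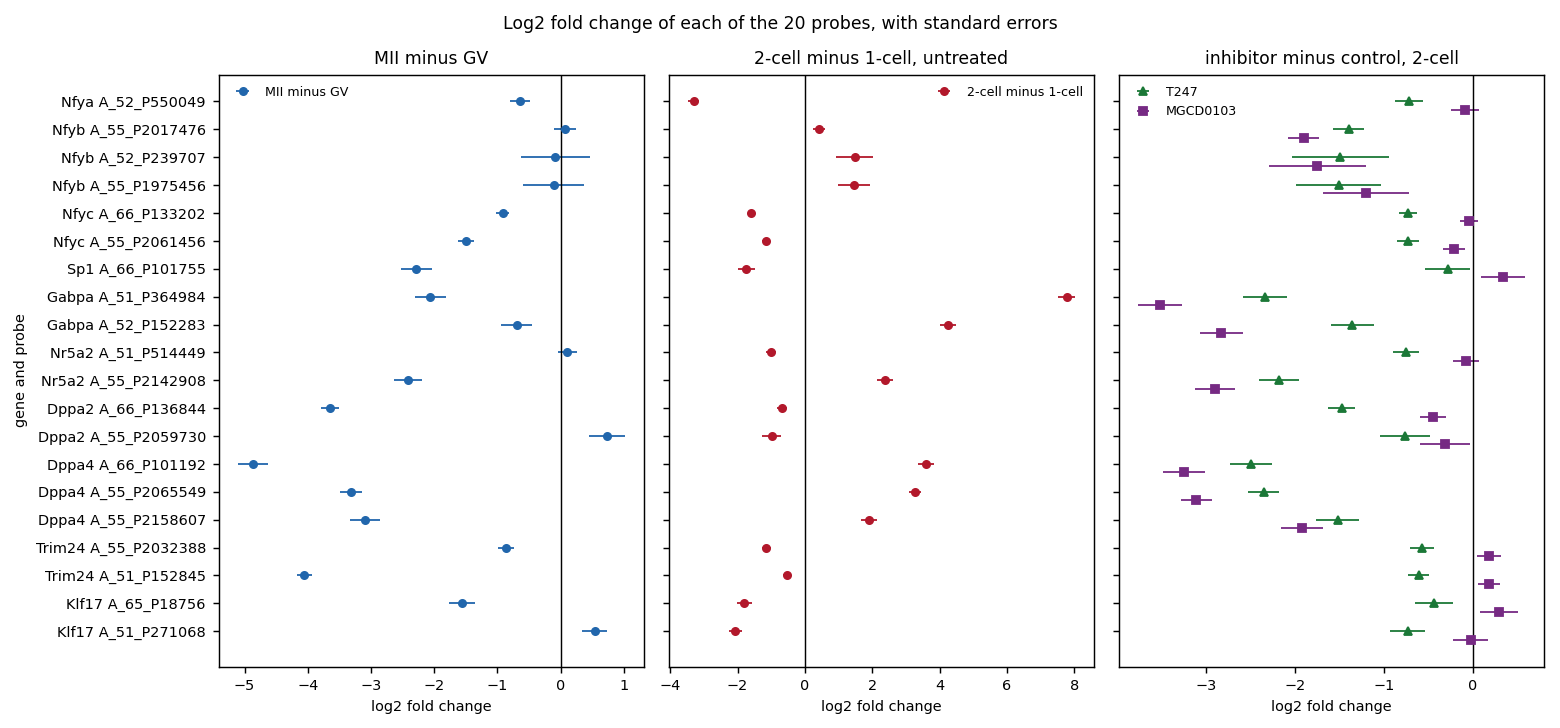
Log2 fold change (x axis) of each of the 20 probes (y axis, gene and probe) from GV to MII, between 1-cell and 2-cell controls, and in 2-cell embryos with either inhibitor. Points are limma estimates from 3 arrays against 3 and bars are standard errors; the Nr5a2 probes, from the 1-cell to the 2-cell stage, stand on opposite sides of 0 at -1.01 and 2.38, whereas both are below 0 at the 2-cell stage with either inhibitor, and fold changes against dim groups depend on their surrogate signals.

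The 2 inhibitors, given at the same dose and time, were compared directly in 20 tests of members, of which 2 were called (3.11% over all genes). At the 2-cell stage Dppa2 was higher with MGCD0103 than with T247 (LFC 1.03 ± 0.14, adjusted p = 8.34e-06) and Gabpa was lower (LFC -1.18 ± 0.24, adjusted p = 0.000796), where 6% of all genes were called, 3.27% higher and 2.73% lower. The Dppa2 call was lost without the first MGCD0103 array (0.92) and also without the first T247 array. Dppa4 (LFC -0.75, adjusted p = 0.0189) and Nfyb (-0.51, adjusted p = 0.0317) were also lower with MGCD0103, without reaching the size of a call, and the upstream Nr5a2 probe differed by -0.73 (adjusted p = 0.0269). The other members lay higher with MGCD0103, between 0.62 (Sp1, adjusted p = 0.0671) and 0.75 (Trim24). Each of the 10 members kept its direction under the 4 scalings and background corrections, although over all genes 726 were higher and 606 lower with MGCD0103 under smooth quantile normalization but 318 and 786 with 75th percentile scaling. Of the members Gabpa alone was called with 75th percentile scaling and 0 with normexp. At the 1-cell stage 0 of 10 members were called in limma (0.225% of all genes, 0.027% higher), 2 had an unadjusted p below 0.05, and the LFC lay between -0.01 and 0.58 for the 9 members other than Gabpa, which was not well above background in either group.

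At the 1-cell stage, 2 h after the end of the exposure, few members differed from the controls. With T247 0 of 10 members were called by limma, where 5.17% of all genes were (4.46% higher and 0.716% lower), and 2 members had an unadjusted p below 0.05, Nfya (LFC -0.84) and Nfyc (-0.42, adjusted p = 0.00339). The other Nfyc probe, A_55_P2061456, had the opposite sign (0.12, not called). With MGCD0103 the dim signal of Gabpa was the 1 call (3.18% of all genes, 2.7% higher), and the other LFCs lay between -0.27 and 0.26. Over all genes the split at this stage moved from 990 higher and 159 lower to 791 and 261 with 75th percentile scaling for T247, and the share of calls that were higher moved from 84.9% to 63.9% for MGCD0103. The change of the inhibitor effect between the 1-cell and 2-cell stages was tested as an interaction. With T247 it was called lower for Nfyb (-1.15 ± 0.25), Dppa2 (-1.69 ± 0.20), Dppa4 (-2.74 ± 0.33) and Gabpa (-1.89 ± 0.35), with adjusted p from 2.75e-07 to 0.000691, where 16% of all genes were called, 5.11% higher and 10.9% lower. With MGCD0103 it was called lower for Nfyb (-1.88), Dppa4 (-3.48) and Gabpa (-2.32), where 6.65% of all genes were higher and 11.7% lower. With 75th percentile scaling the split over all genes moved from 1134 higher and 2427 lower to 1623 and 1264 for T247 and from 1477 and 2600 to 2267 and 1962 for MGCD0103, and of these member calls that of Nfyb with T247 was lost. The Nfyb value with T247 was -0.94 and no longer called without the second 2-cell control array. In controls Dppa4 changed by 3.59 between these stages, with T247 by 0.85 and with MGCD0103 by 0.12. The upstream Nr5a2 probe changed by 2.38, -0.02 and -0.65.

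Between the 2-cell and 4-cell stages the T247 effect moved the other way. The interaction was called higher for Nfyb (1.69), Dppa4 (2.76) and Gabpa (1.94), 3 of 10 members with adjusted p from 2.4e-07 to 7.06e-05, where 21.4% of all genes were called and 14.3% were higher. In controls Dppa4 changed by 1.61 between these stages and with T247 by 4.37. Gabpa changed by 0.51 and 2.45, Nfyb by 0.80 and 2.49, and the upstream Nr5a2 probe by 0.47 and 2.79. The interaction of Sp1 was -0.77, but it was called with 75th percentile scaling and quantile normalization, and without the first 2-cell control array (-1.30). These comparisons share the 2-cell control and T247 arrays with the comparisons at the 2-cell stage. Over all genes the split of calls was 3186 higher and 1567 lower, and 1815 and 2514 with 75th percentile scaling, and the 3 member calls remained under each of the 4 scalings and background corrections.

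Other genes of the same biology were described by lists. Of 20 measured other candidate activators 7 rose and 8 fell from the 1-cell to the 2-cell stage, where 16.9% of all genes rose and 27.1% fell. Among them Obox6, an oocyte- and embryo-specific homeobox gene, was at least 500-fold higher, Klf5, a Krüppel-like factor well above background on 1 of 3 1-cell arrays, rose by 6.93 (log2), Zar1, a maternal RNA-binding protein, fell by 3.14 and Obox1 fell by 2.17. With T247 2 of the 20 were higher and 4 lower at the 2-cell stage (9.13% and 12.9% of all genes), with Tead4 at 1.15, Obox5 at 1.09, Obox6 at -2.81 and Kdm5b, a histone H3K4 demethylase, at -1.91. With MGCD0103 3 were higher and 4 lower (12.1% and 12.5% of all genes), with Obox5 at 1.71, Dppa3 at 1.15, Obox6 at -3.81 and Kdm5b at -2.79. With T247 at the 4-cell stage 1 was higher and 1 lower (10.1% and 5.26% of all genes), where Sox2 was at least 3.19-fold higher and Pou5f1 fell by 1.59. The median LFC of this list at the 2-cell stage was -0.22 with T247 and 0.12 with MGCD0103, and the medians over all genes were -0.22 and -0.004.

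Of 15 binding partners and paralogs of the members, all measured, 4 rose and 1 fell into the 2-cell stage (16.9% and 27.1% of all genes), with Klf9 at 4.72 and Klf3 at 3.81 (each well above background on 1 of 3 1-cell arrays) and Gabpb1, a partner subunit of Gabpa, at -1.33. At the 2-cell stage 2 were higher and 4 lower with T247 (9.13% and 12.9% of all genes), with Klf2 at 1.24, Sp4 at 1.02, Gabpb2 at -1.50 and Trim28 at -1.45. With MGCD0103 1 was higher and 5 were lower (12.1% and 12.5%), with Sp4 at 1.08, Klf10 at -2.02 and Gabpb2 at -1.65. With T247 2 were higher at the 4-cell stage (10.1% of all genes), Klf6 (1.83, with 2 of 3 control arrays well above background) and Klf3 (1.24). Of 19 measured transcripts typical of the 2-cell embryo, most of them from multigene families whose members can share probes, 18 rose and 1 fell into the 2-cell stage (16.9% and 27.1% of all genes), where Tdpoz3 was at least 150-fold and Tdpoz4 at least 132-fold higher and Arg2 changed by -2.38. A single call of these 19 was made with T247 at the 2-cell stage (Arg2, -1.23, where 12.9% of all genes were lower), and 4 were lower with MGCD0103 (12.5%), led by Tdpoz4 (-1.57) and Tdpoz1 (-1.50). At the 4-cell stage 8 of 19 were higher with T247 (10.1% of all genes), led by Usp17lb (1.86) and Zscan4a (1.81), and the median LFC of the list was 1.11 against -0.10 over all genes.

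Across the 13 condition means, the genes with the pattern most like that of a member were sought among 17579 genes. Gabpa was closest to Zfp622 (Pearson r = 0.995) and Rabgef1 (0.992), and 242 genes had an r above 0.95. Dppa4 was closest to Ints7 (0.982) and Mfsd5 (0.981), Dppa2 to Nub1 (0.989) and Gm12693 (0.985), and the brightest probe of Nr5a2 to Thoc2l (0.984) and Actr6 (0.974). Nfya was closest to Smad2 (0.989) and Fshb (0.988), Nfyb to Ube2o (0.975) and Ncmap (0.958), and Nfyc to Pias4 (0.980) and Ttc27 (0.978). Trim24 was closest to Psrc1 (0.980) and Btf3l4 (0.976), Sp1 to Gm13770 (0.976) and 1700030C10Rik (0.971), and Klf17 to Sec16b (0.959) and Stk10 (0.956). These values describe 13 points that share arrays and normalization.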

How the data were processed

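Total RNA of 100 oocytes or embryos per array was amplified from poly(A) tails, labelled with Cy3 and hybridized to 1-colour Agilent mouse arrays. The intensity values that the authors deposited are background-subtracted by Agilent Feature Extraction (version 9.5.1.1 in the processing notes, 10.7.1.1 in the file headers), use surrogates for low signals and have no normalization between arrays; the file of the first 1-cell MGCD0103 array holds rounded values. The authors' own log2 values in the series matrix, 19143 probes with 15 of the 20 member probes, served as an alternative.

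Spots of a probe were averaged and log2 values put through smooth quantile normalization over 13 conditions, written for this work (smoothing window 5%). Probes with a positive and significant signal on at least 1 of 3 arrays in at least 1 condition were kept, which removed 483 of 55681. Each gene was represented by its brightest probe. A single limma 3.58.1 fit (R 4.3.3, statmod 1.5.0 and version 1.17.8 of data.table) over 39 arrays gave 17 comparisons with Benjamini-Hochberg adjustment over 22206 genes, and a like fit ran over 55198 probes. The pipeline was tested on simulated data. Precision is limited by having 3 arrays a condition. The methods describe the arrays as biological replicates, and their numbers are not a stated pairing, although on untreated arrays the number is also that of the slide. The mean correlation of same-numbered deviations lay between 0.03 and 0.11 in untreated steps and between -0.07 and 0.09 in inhibitor comparisons.

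A bound of a fold sets the bright group's mean against the mean, over the dim arrays, of the higher of the lowest signal well above background and the signal of the probe. The named genes are the members with all their probes, in each list the 2 called genes that rose most and the 2 that fell most, and for each member the 2 genes with the highest correlation over 13 condition means. The members and the gene lists were chosen with earlier results of these data known. Alternatives covered scaling, background correction, probe filters, probe choice, samples in the fit, moderation, array weights, blocks and leaving out each array.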

Additional observations from a re-analysis of the deposited data

Results flagged for a closer look

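These 27 values are differences of an inhibitor effect between stages that passed the interaction test in limma (size of at least 1 and adjusted p below 0.05). Between the 1-cell and 2-cell stages the T247 effect changed by -1.15 for Nfyb, -1.69 for Dppa2, -2.74 for Dppa4 and -1.89 for Gabpa on the brightest probes, and the MGCD0103 effect by -1.88 for Nfyb, -3.48 for Dppa4 and -2.32 for Gabpa. Between the 2-cell and 4-cell stages the T247 effect changed by 1.69 for Nfyb, 2.76 for Dppa4 and 1.94 for Gabpa. The 1-cell arrays of Gabpa were not well above background, so the sizes of its first 2 values depend on surrogate signals.

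Other probes gave the following values for T247 from the 1-cell to the 2-cell stage, MGCD0103 over the same step and T247 from the 2-cell to the 4-cell stage. Dppa2 probe A_55_P2059730 gave -1.86, -1.41 and 1.33. Dppa4 probe A_55_P2065549 gave -2.48, -3.40 and 2.47, and Dppa4 probe A_55_P2158607 gave -2.75, -2.66 and 2.13. Nr5a2 probe A_55_P2142908 gave -2.39, -3.03 and 2.32. Gabpa probe A_52_P152283, dim at the 1-cell stage, gave -1.16 and -2.63 for the 2 changes into the 2-cell stage. For Nfyb probe A_52_P239707, dim on most 1-cell and 2-cell arrays, the MGCD0103 change was -2.62. For Trim24 probe A_51_P152845 the T247 change into the 2-cell stage was -1.08, and for Klf17 probe A_51_P271068 that into the 4-cell stage was 1.08. Without the first 2-cell control array neither was called (-0.92 and 0.87). All of them use the 2-cell control arrays, of which the first stood apart.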

How the results depend on the processing

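The falls of Dppa4, Gabpa and Nfyb with both inhibitors and of Dppa2 with T247 at the 2-cell stage were called on the brightest probe under every alternative that measured it (the series matrix holds no Gabpa probe). On other probes Dppa2 A_55_P2059730 with T247 (-0.77) and Nfyb A_55_P1975456 with MGCD0103 were not called. With the replicate block there were 24 member calls between stages, 9 with an inhibitor, 2 between inhibitors and 10 interactions, the same counts as without it. Slide as a random block changed no call. No slide held both treated and untreated arrays, or both inhibitors. The block therefore cannot separate slide from treatment in the comparisons with or between inhibitors. Counts between stages were 32 with 75th percentile scaling and 48 with no minimum size. Calls with an inhibitor were 20 with no minimum size. The 2 calls between inhibitors were 1 with 75th percentile scaling, 0 with normexp, 1 with the mean of probes, 1 with the series matrix and 9 with no minimum size. Leaving out 1 array gave 23 to 26 calls between stages, 8 to 9 with an inhibitor, 1 to 3 between inhibitors and 9 to 12 interactions. The fall of Nr5a2 into the 2-cell stage was lost without the second 1-cell control array or without either of the 2-cell control arrays other than the first (-0.99 to -0.95), and that of Dppa2 into the blastocyst without the second morula or the first blastocyst array (-0.95 and -0.94) and under quantile normalization (-0.97). Signs turned with the choice of probe. For Nr5a2 the mean of probes gave -1.16 into MII and 0.68 into the 2-cell stage, and its other probe gave -2.42 into MII, 1.38 into the 1-cell and 2.38 into the 2-cell stage. The other probes gave 0.73 into MII and -0.57 into the 1-cell stage for Dppa2, 0.54 into MII for Klf17, 1.95 into the 1-cell stage for Trim24 and 1.24 into the morula for Gabpa. In alternatives chosen after seeing the data, 75th percentile scaling turned the MII step to 1.32 for Nfyb probe A_52_P239707 and 1.22 for A_55_P1975456, and quantile normalization to 0.021 for Nfyc probe A_55_P2061456. The causes were not tested. Dim signals of Gabpa, Dppa4 and the Nfyb probes before the 2-cell stage limit their folds.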
